A study of Homo sapiens with 12 samples.

Results

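Expression of 10 proteoglycan core protein genes was followed by RNA-seq in lines derived from CWR22Rv1, a prostate cancer cell line of human origin. The genes were decorin (DCN), lumican (LUM), betaglycan (TGFBR3), the syndecans SDC1, SDC2 and SDC4, the glypicans GPC1 and GPC4, agrin (AGRN) and perlecan (HSPG2). They were taken by gene symbol from the deposited expression values, and all 10 were among the 13951 genes listed. The study itself drew attention to proteoglycans on the basis of these libraries, so the choice of genes is not independent of their direction.

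The 12 libraries comprised 4 groups of 3, and all cells were cultured for 48 h in serum-containing medium with puromycin. The Control cells carried exogenous Cas9 and received no guide RNA. The LV-MEIS1 cells received MEIS1 from the lentiviral vector pReceiver-LV105, and the sources used here do not say whether they also carried Cas9. The HOXB13ko cells expressed Cas9 from the EF1a promoter on a Sleeping Beauty transposon, were transfected with a HOXB13 crRNA, and were a single pool recombined from knockout clones. The HOXB13ko-LV-MEIS1 cells were that pool infected with the same MEIS1 virus. Each genotype was therefore 1 line or pool. Nothing in the labels says that the replicates were separate cultures or derivations, and p-values measure only the spread between these libraries, which may be technical. MEIS1 and HOXB13 encode homeodomain transcription factors that can bind DNA together, and the design asks whether the response to exogenous MEIS1 differs when HOXB13 is targeted.

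Proteoglycans are core proteins that carry glycosaminoglycan chains. Decorin and lumican are small leucine-rich proteoglycans of the extracellular matrix that organise collagen fibrils, and decorin also binds and restrains several receptor tyrosine kinases and TGF-beta. Syndecans span the membrane, glypicans are held there by a lipid anchor, and both present growth factors to their receptors, whereas agrin and perlecan are large components of basement membranes. Decorin and lumican in the prostate are known mainly as products of stromal fibroblasts.

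Levels are given in CPM, the reads of a gene scaled to a fixed library total after the authors' normalisation. Estimates from the steps between low CPM values gave 17200000 to 28700000 reads per library, so that 3 reads corresponded to between 0.105 and 0.174 CPM. The lowest value of any of the 10 genes in any library corresponded to about 20 estimated reads, and each of them was therefore measurable in all 4 groups. Log2 fold changes are differences of log2(CPM + 0.5) with their SE from a fit over all 12 libraries, a scale that understates changes at low CPM. A gene was called when limma's treat test placed its change beyond 1.5-fold at an adjusted p-value under 0.05 over all genes, and the adjusted p-value of limma's test against no change (eBayes) is given beside it. "Rose" and "fell" are used of called genes.

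MEIS1 mRNA averaged 4.25 ± 0.202 CPM in Control, 47.4 ± 1.96 in LV-MEIS1, 3.56 ± 0.118 in HOXB13ko and 29.7 ± 0.365 in HOXB13ko-LV-MEIS1 (SD, n = 3 in each). HOXB13 mRNA was 196 ± 17.1 CPM in Control and 151 ± 0.770 CPM in LV-MEIS1, a log2 difference of -0.37 (limma eBayes adjusted p = 0.00049). It was 354 ± 25.1 CPM in HOXB13ko-LV-MEIS1 and 327 ± 20.1 CPM in the libraries labelled HOXB13ko. The transcript of the targeted gene was therefore higher, not lower, in the HOXB13ko libraries than in Control, a log2 difference of 0.74 ± 0.07 (limma eBayes adjusted p = 2.1e-06, treat adjusted p = 0.808). The study reports that the knockout was successful by western blot, also in each clone before pooling. That is a measure of protein, which is not part of these data. The mRNA does not show the loss, and the group is called "the libraries labelled HOXB13ko" where a direction is drawn from it. The replicates of a group correlated at 0.990 to 0.995 across genes.

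The epithelial markers EPCAM, KRT8, KRT18 and CDH1 were listed in every library, EPCAM at 80.4 to 111 CPM and KRT8 at 285 to 437 CPM. So were the prostate kallikreins KLK3 (106 to 195 CPM) and KLK2 (106 to 295 CPM), whose means were lowest in LV-MEIS1. KLK3 averaged 182 CPM in Control, 109 in LV-MEIS1, 137 in HOXB13ko and 121 in HOXB13ko-LV-MEIS1, and KLK2 287, 109, 230 and 204 CPM. Between Control and LV-MEIS1, EPCAM averaged 84.3 and 83.5, KRT8 401 and 366, KRT18 299 and 294, and CDH1 345 and 389 CPM. None of 5 endothelial markers and none of 5 leukocyte markers was listed. Of 13 fibroblast markers 6 were listed, and COL1A2, COL3A1, PDGFRA, FAP, THY1, POSTN and MFAP5 were not. The summed CPM of those 6 ranged from 74.1 to 78.5 in Control libraries, from 109 to 120 in LV-MEIS1, from 79.8 to 85.8 in HOXB13ko and from 78.5 to 87.0 in HOXB13ko-LV-MEIS1. It was thus higher in LV-MEIS1, the group in which DCN and LUM were also highest. The listed markers did not move together. The mean of COL1A1 was 14.5 CPM in Control and 32.8 CPM in LV-MEIS1, and that of FBLN1 was 41.4 and 62.6 CPM. Means of PDGFRB (1.41 and 0.266 CPM) and ACTA2 (8.88 and 5.62 CPM) were lower in LV-MEIS1. The part of these markers in the levels of DCN and LUM was not tested.

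Of the 10 genes, 3 rose (DCN, LUM and HSPG2) and 1 fell (SDC1) in LV-MEIS1 against Control, where 3.99% of all genes were called (1.75% higher and 2.24% lower). In eBayes 7 were higher and 2 lower, beside 44.5% of all genes (23.2% higher and 21.3% lower), and the same 9 had groups that did not overlap, beside 51.3% of all genes. Their median log2 fold change was 0.53, against 0.01 for all genes. When MEIS1 was introduced into the HOXB13ko pool, none of the 10 was called by either test, where treat called 0.00717% and eBayes 0.0502% of all genes. The 1 gene that treat called there was MEIS1 itself (limma treat adjusted p = 9.6e-11). Of the 10, 1 gene, HSPG2, was under an unadjusted eBayes p of 0.05, beside 14.8% of all genes. The median there was 0.03, against 0.01 for all genes.

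**Figure D1:**
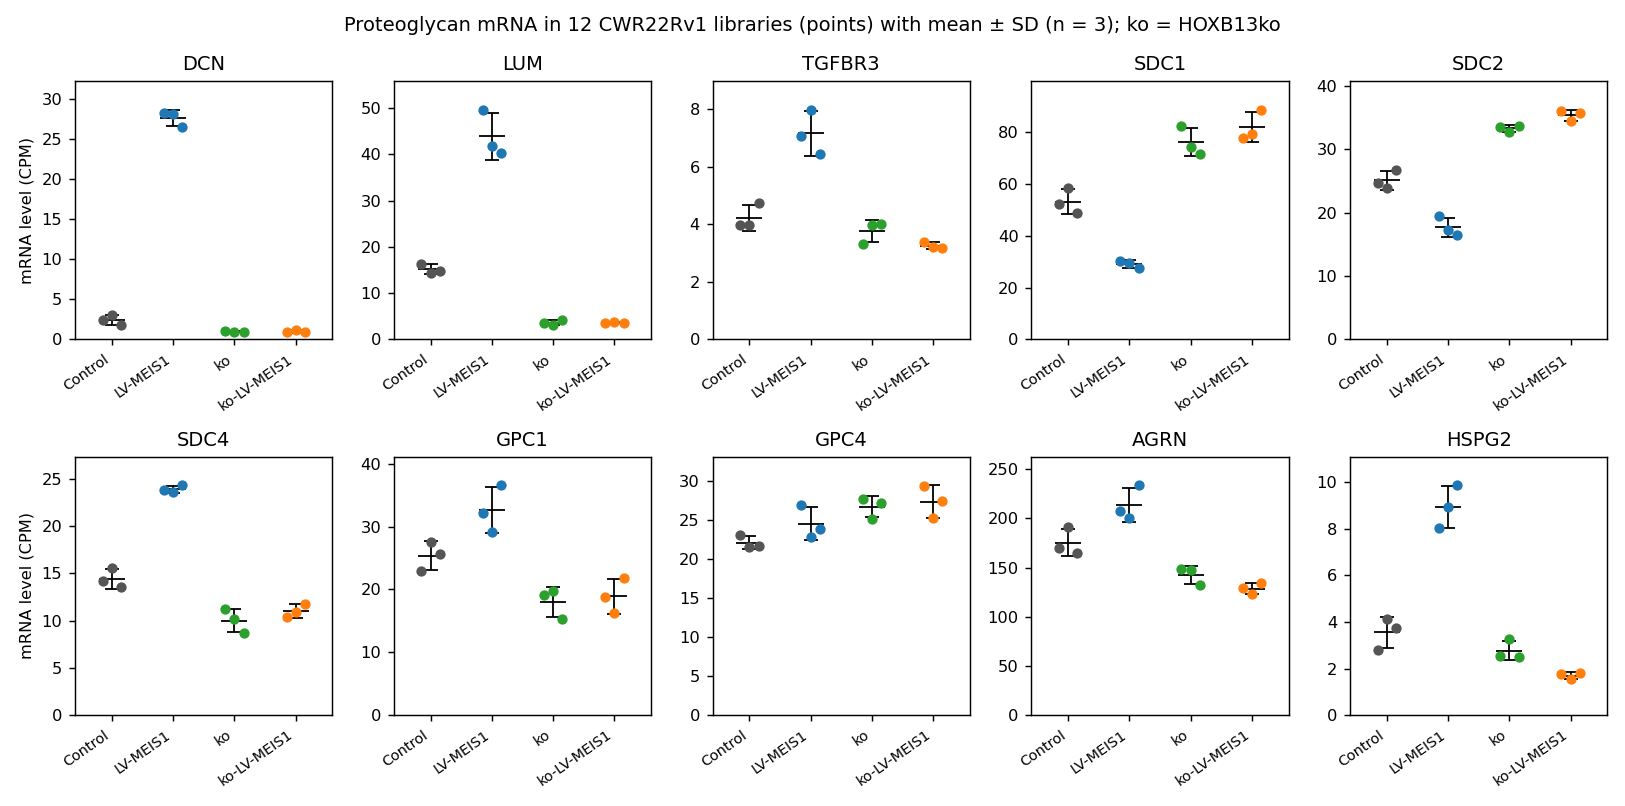
mRNA level (CPM, vertical axis from 0) of the 10 proteoglycan genes in each of the 12 libraries, with the mean ± SD of the 3 libraries of each group (ko stands for HOXB13ko). DCN, LUM, TGFBR3, SDC4, GPC1, AGRN and HSPG2 have their 3 highest libraries in LV-MEIS1, and SDC1 and SDC2 have their 3 lowest there.

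Decorin and lumican spanned the widest range. DCN (ENSG00000011465, GRCh38 chromosome 12, 91140484 to 91183217, minus strand) was at 2.46, 2.99 and 1.83 CPM in the 3 Control libraries and at 28.3, 28.2 and 26.5 CPM in LV-MEIS1. DCN values were 1.10, 0.947 and 0.899 CPM in HOXB13ko and 0.930, 1.22 and 0.873 CPM in HOXB13ko-LV-MEIS1. All LV-MEIS1 libraries stood well above all others, and every library of both HOXB13ko groups lay below every Control library, while the HOXB13ko groups overlapped each other. DCN rose by 3.28 ± 0.15 on the log2 scale in LV-MEIS1 against Control (limma treat adjusted p = 5.6e-09). In the HOXB13ko pool the change with MEIS1 was 0.02, with a 95% interval of -0.31 to 0.35 (limma eBayes adjusted p = 0.963). The difference of these effects was 3.26 ± 0.22 (treat adjusted p = 7.6e-07 in limma). In HOXB13ko against Control, DCN was lower by 0.96 on the log2 scale, which eBayes placed apart from no change (limma adjusted p = 0.00035) but treat did not place beyond 1.5-fold (adjusted p = 0.612).

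LUM (ENSG00000139329, chromosome 12, 91102629 to 91111494, minus strand) started from a higher level. Control libraries had 16.4, 14.4 and 14.7 CPM, and LV-MEIS1 libraries had 49.6, 41.9 and 40.2 CPM. In HOXB13ko the values were 3.48, 3.18 and 4.21 CPM, and in HOXB13ko-LV-MEIS1 they were 3.53, 3.77 and 3.59 CPM. The order of the groups was that of DCN, and the only groups that overlapped were HOXB13ko and HOXB13ko-LV-MEIS1. LUM rose by 1.5 ± 0.11 in LV-MEIS1 (limma treat adjusted p = 2.5e-05) and fell by 1.93 on the log2 scale in the libraries labelled HOXB13ko against Control (treat adjusted p = 1.6e-06). It was the single member called in the latter comparison, in which 1.41% of all genes were called, and eBayes placed 8 of the 10 apart from no change beside 32.9% of all genes. The groups did not overlap for the same 8, beside 44.9% of all genes. The change with MEIS1 in the HOXB13ko pool was 0.01, with a 95% interval of -0.22 to 0.24, and the effects differed by 1.49 ± 0.15 (limma treat adjusted p = 0.0014).

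Both genes therefore had the lowest levels in the libraries labelled HOXB13ko whether or not MEIS1 was added. DCN in HOXB13ko-LV-MEIS1 was 18.7-fold lower and LUM 10.7-fold lower than in LV-MEIS1, on the log2(CPM + 0.5) scale, while MEIS1 mRNA in that group was 0.66 lower on the log2 scale (limma eBayes adjusted p = 4.4e-06, treat adjusted p = 1). HOXB13 mRNA was 1.225 higher there on the log2 scale (limma treat adjusted p = 3.9e-06). Those gaps in MEIS1 and HOXB13 mRNA accompany the comparison, and their part in the result was not tested. DCN and LUM are neighbours on the minus strand of chromosome 12, 28989 bases apart, with 0 protein-coding genes between them. The next members of the same cluster of small leucine-rich proteoglycans, KERA and EPYC, were not listed.

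The genes with the nearest profiles were taken over the 12 libraries. Likeness was measured as the root mean square difference of log2(CPM + 0.5), centred on each gene's mean, across those libraries among 13901 genes. The nearest to DCN were SLITRK6, a transmembrane neuronal protein, at 0.274, ARSJ, a member of the sulfatase family, at 0.325, and SMOC1, a secreted calcium-binding matrix protein, at 0.458. MCF2L, a guanine nucleotide exchange factor, followed at 0.507, and COL6A2, a collagen VI chain, at 0.567. LUM was the 10th nearest to DCN, at 0.658. For LUM the nearest were MAOA, a monoamine oxidase, at 0.128, IGF1, a growth factor, at 0.215, SMOC1 at 0.232, HSPB6, a small heat shock protein, at 0.394, and MAGEB2, a cancer-testis antigen, at 0.401. MAGEB2 averaged 0.0824 CPM in HOXB13ko and 0.120 CPM in HOXB13ko-LV-MEIS1, around the level of 3 reads. SMOC1 stood on both lists. DCN was only the 50th nearest to LUM.

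**Figure D2:**
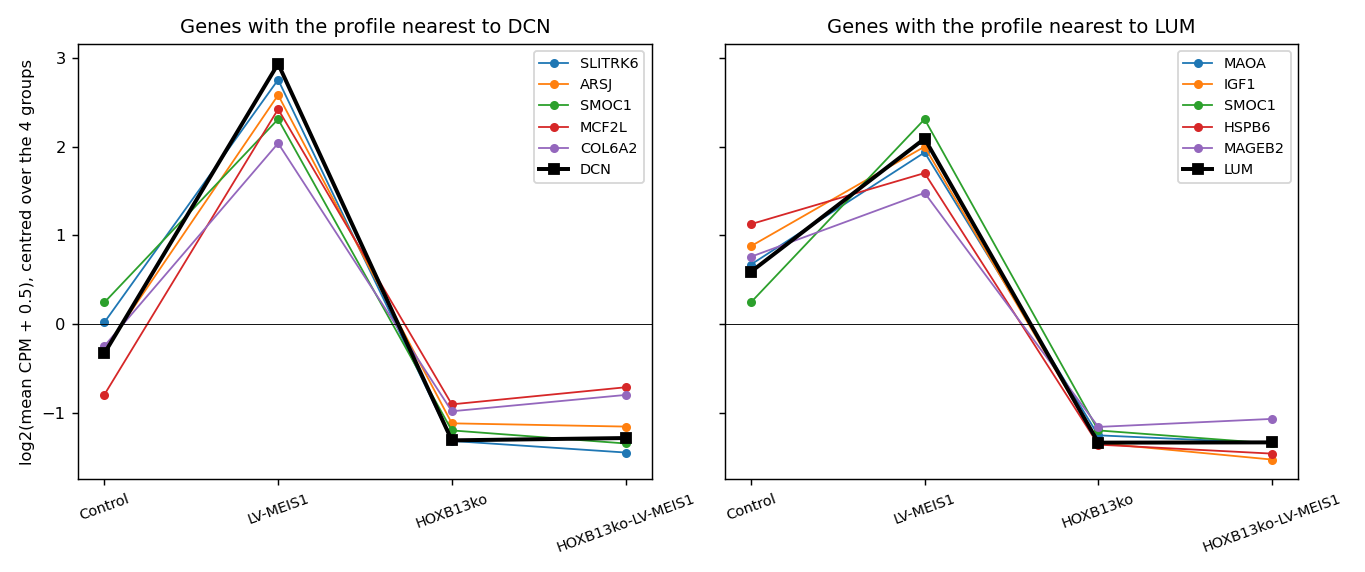
Group means of log2(mean CPM + 0.5), centred over the 4 groups, for DCN and LUM (black squares) and the 5 genes whose values over the 12 libraries were nearest to each. DCN has the highest peak in LV-MEIS1 and LUM lies among its neighbours. Both are lowest in the HOXB13ko groups.

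TGFBR3 (ENSG00000069702, chromosome 1, 91680343 to 91906335, minus strand) encodes betaglycan, which presents TGF-beta, TGF-beta 2 in particular, to the signalling receptors. Its Control libraries had 3.97, 3.98 and 4.76 CPM and its LV-MEIS1 libraries 7.08, 7.99 and 6.44 CPM, with no overlap. HOXB13ko libraries had 3.32, 3.99 and 4.01 CPM and overlapped Control, and HOXB13ko-LV-MEIS1 libraries had 3.40, 3.21 and 3.16 CPM. The log2 fold change in LV-MEIS1 was 0.70 ± 0.12, apart from no change (limma eBayes adjusted p = 0.00037) and not called (treat adjusted p = 1). In the HOXB13ko pool the change with MEIS1 was -0.18, with an interval of -0.44 to 0.08. TGFBR3 was called in HOXB13ko-LV-MEIS1 against LV-MEIS1 with a log2 difference of -1.03 (limma treat adjusted p = 0.0223), and the call was lost under quantile normalisation (adjusted p = 0.205). It was also lost without LV-MEIS1 replicate 1 or 2 or HOXB13ko-LV-MEIS1 replicate 2 or 3, with treat adjusted p-values of 0.0590 to 0.130.

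The 3 syndecans did not share a direction. SDC1 (ENSG00000115884, chromosome 2, 20200797 to 20225433, minus strand), the syndecan of epithelia, had 52.3, 58.2 and 48.6 CPM in Control and 30.2, 29.4 and 27.5 CPM in LV-MEIS1. The HOXB13ko libraries had 82.1, 74.3 and 71.6 CPM and the HOXB13ko-LV-MEIS1 libraries 77.7, 79.3 and 88.5 CPM. The LV-MEIS1 libraries were below and both HOXB13ko groups above every Control library, the reverse of the order of LUM. SDC1 fell by 0.85 on the log2 scale, SE 0.08, in LV-MEIS1 against Control (limma eBayes adjusted p = 6e-07). The call by treat was narrow (adjusted p = 0.0408). It was lost with a pseudocount of 1 (0.0540), an equal sum per library (0.0585), a replicate block (0.0717) and only the libraries compared (0.0779). It was also lost without Control replicate 1 or 2, any of the LV-MEIS1 replicates, HOXB13ko replicate 2 or HOXB13ko-LV-MEIS1 replicate 2, with treat adjusted p-values of up to 0.213. In HOXB13ko against Control the log2 difference was 0.52 (limma eBayes adjusted p = 0.00018, treat adjusted p = 1). With MEIS1 in the HOXB13ko pool it was 0.11, with an interval of -0.06 to 0.27, and the difference of the effects was -0.96 ± 0.11 (limma treat adjusted p = 0.0573, eBayes adjusted p = 1.4e-05). It passed treat with median of ratios scaling (0.0462), quantile normalisation (0.0384), without Control replicate 3 (0.0313) and without HOXB13ko replicate 1 (0.0324).

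SDC2 (ENSG00000169439, chromosome 8, 96493813 to 96611790, plus strand), the mesenchymal syndecan, followed SDC1 with smaller steps. Its libraries had 24.7, 23.9 and 26.8 CPM in Control and 19.4, 17.2 and 16.5 CPM in LV-MEIS1. Those of HOXB13ko had 33.6, 32.7 and 33.7 CPM and those of HOXB13ko-LV-MEIS1 36.1, 34.4 and 35.7 CPM. No pair of groups overlapped, but the step of 0.09 from HOXB13ko to HOXB13ko-LV-MEIS1 had an interval of -0.07 to 0.24 (limma eBayes adjusted p = 0.598). In LV-MEIS1 against Control the log2 fold change was -0.49 ± 0.07 (limma eBayes adjusted p = 6.4e-05, treat adjusted p = 1).

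SDC4 (ENSG00000124145, chromosome 20, 45325288 to 45348424, minus strand), a component of focal adhesions, moved the other way. Control libraries had 14.1, 15.6 and 13.5 CPM and LV-MEIS1 libraries 23.8, 23.6 and 24.3 CPM. The HOXB13ko libraries had 11.2, 10.2 and 8.66 CPM and the HOXB13ko-LV-MEIS1 libraries 10.4, 10.9 and 11.8 CPM, overlapping each other and below Control. The log2 fold change in LV-MEIS1 was 0.71 ± 0.09 (limma eBayes adjusted p = 3.2e-05, treat adjusted p = 1) and in HOXB13ko against Control -0.51 (eBayes adjusted p = 0.0012). In the HOXB13ko pool the change was 0.14, with an interval of -0.06 to 0.34. Between HOXB13ko-LV-MEIS1 and LV-MEIS1, SDC4 fell by 1.08 on the log2 scale (treat adjusted p = 0.0013 in limma), while SDC1 rose by 1.48 (treat adjusted p = 3.9e-07) and SDC2 rose by 0.98 (treat adjusted p = 7.1e-04).

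The 2 glypicans, GPC1 and GPC4, were called in none of these comparisons. GPC1 (ENSG00000063660, chromosome 2, 240435663 to 240468076, plus strand) had 22.9, 27.5 and 25.6 CPM in Control and 32.2, 29.2 and 36.6 CPM in LV-MEIS1. It had 19.1, 19.7 and 15.3 CPM in HOXB13ko and 18.8, 16.3 and 21.8 CPM in HOXB13ko-LV-MEIS1. LV-MEIS1 lay above and the HOXB13ko groups below the Control libraries, in log2 fold changes of 0.36 ± 0.12 (limma eBayes adjusted p = 0.0263) and -0.48 (eBayes adjusted p = 0.0078), neither past treat. The former was lost without Control replicate 1, Control replicate 3, LV-MEIS1 replicate 1 or LV-MEIS1 replicate 3, with eBayes adjusted p-values of up to 0.116. For GPC1 the difference of the MEIS1 effects was 0.29, with an interval of -0.07 to 0.65. GPC4 (ENSG00000076716, chromosome X, 133300103 to 133415489, minus strand) had 23.1, 21.6 and 21.7 CPM in Control and 26.9, 22.8 and 23.8 CPM in LV-MEIS1, followed by 27.7, 25.2 and 27.2 CPM in HOXB13ko and 29.4, 25.3 and 27.5 CPM in HOXB13ko-LV-MEIS1. Neighbouring groups overlapped, and the highest group mean was 1.24-fold the lowest. In LV-MEIS1 the GPC4 log2 fold change was 0.14, with an interval of -0.03 to 0.31 (limma eBayes adjusted p = 0.156). In HOXB13ko against Control it was 0.27 (eBayes adjusted p = 0.0193), and that was lost without Control replicate 2 or 3 or HOXB13ko replicate 1 or 3, with adjusted p-values of up to 0.0661.

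The basement membrane proteoglycans AGRN and HSPG2 had their highest levels in LV-MEIS1. AGRN (ENSG00000188157, chromosome 1, 1020120 to 1056118, plus strand) had 169.6, 190.9 and 165.0 CPM in Control and 207.6, 200.3 and 233.5 CPM in LV-MEIS1. Its HOXB13ko libraries had 148.5, 147.1 and 131.9 CPM and its HOXB13ko-LV-MEIS1 libraries 128.8, 123.2 and 134.0 CPM. LV-MEIS1 stood above Control without overlap by a log2 fold change of 0.29 ± 0.07 (limma eBayes adjusted p = 0.0045, treat adjusted p = 1). In the HOXB13ko pool the change with MEIS1 was -0.15, with an interval of -0.30 to 0.01. An exon of AGRN overlaps ENSG00000242590 on the same strand, so their reads may be shared.

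HSPG2 (ENSG00000142798, chromosome 1, 21822244 to 21937310, minus strand) had 2.79, 4.12 and 3.74 CPM in Control and 8.03, 8.92 and 9.86 CPM in LV-MEIS1. The HOXB13ko libraries had 2.55, 3.25 and 2.51 CPM, overlapping Control, and the HOXB13ko-LV-MEIS1 libraries had 1.77, 1.53 and 1.80 CPM, below all others. HSPG2 rose by 1.23 ± 0.15 in LV-MEIS1 (limma treat adjusted p = 0.0106), a call lost without Control replicate 1 (0.0577) or LV-MEIS1 replicate 3 (0.0675). In the HOXB13ko pool it was lower with MEIS1 by 0.57 on the log2 scale, with an interval of -0.89 to -0.25, which did not pass (limma eBayes adjusted p = 0.146, treat adjusted p = 1). The directions of the MEIS1 effects were opposite and differed by 1.80 ± 0.21 (limma treat adjusted p = 0.0016). It was 1 of the 2 genes of the 10 whose HOXB13ko groups did not overlap, SDC2 being the other, beside 21.1% of all genes. An exon of HSPG2 overlaps LDLRAD2 on the opposite strand, and kallisto was run without strand, so their reads may be shared.

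**Figure D3:**
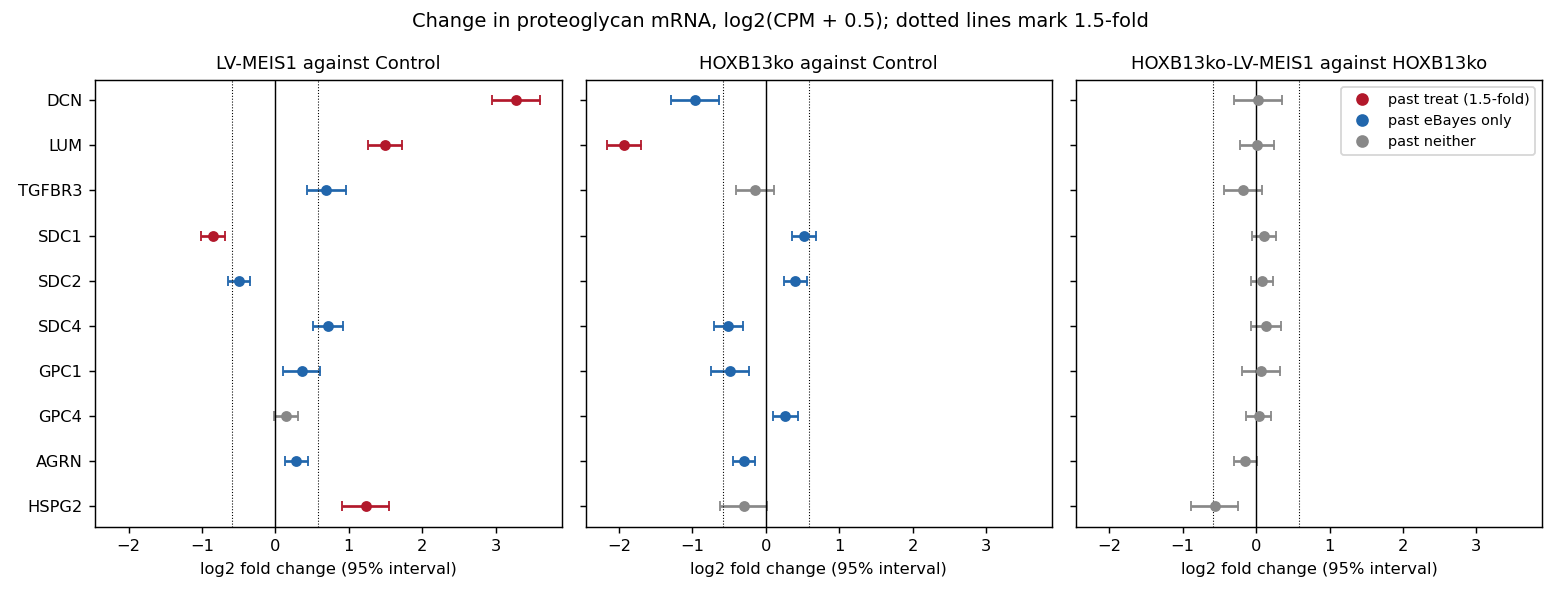
Log2 fold changes of the 10 proteoglycan genes with 95% intervals in 3 comparisons, with dotted lines at 1.5-fold. Red points passed treat, blue points passed only the test against no change and grey points passed neither. LUM is the only red point in HOXB13ko against Control and there is none in the HOXB13ko pool.

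The LV-MEIS1 libraries lay above all 9 others for 7 of the 10 genes and below them for 2, SDC1 and SDC2, beside 15.1% and 14% of all genes. Compared with LV-MEIS1, the HOXB13ko-LV-MEIS1 libraries had 5 genes lower (DCN, LUM, TGFBR3, SDC4 and HSPG2) and 2 higher (SDC1 and SDC2) by treat, where 6.71% of all genes were called (3.42% lower and 3.29% higher). The difference of the MEIS1 effects passed treat for DCN, LUM and HSPG2, where 2.93% of all genes were called. By eBayes it passed for 8 of the 10 (GPC1 and GPC4 not), beside 34.2% of all genes. This comparison uses the same Control and HOXB13ko libraries as the others and is not separate evidence.

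Levels between genes were compared per length, as CPM per kb of the canonical Ensembl transcript. In Control, AGRN (23.9) and SDC1 (16.8) were highest and DCN (0.354) and HSPG2 (0.248) lowest. LUM was at 5.68 CPM per kb in Control and DCN more than an order of magnitude lower. In LV-MEIS1, LUM reached 16.4 CPM per kb, more than SDC1 at 9.18, and DCN reached 4.03. In HOXB13ko, LUM was at 1.36 and DCN at 0.143 CPM per kb, and SDC1 was at 24.0.

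**Figure D4:**
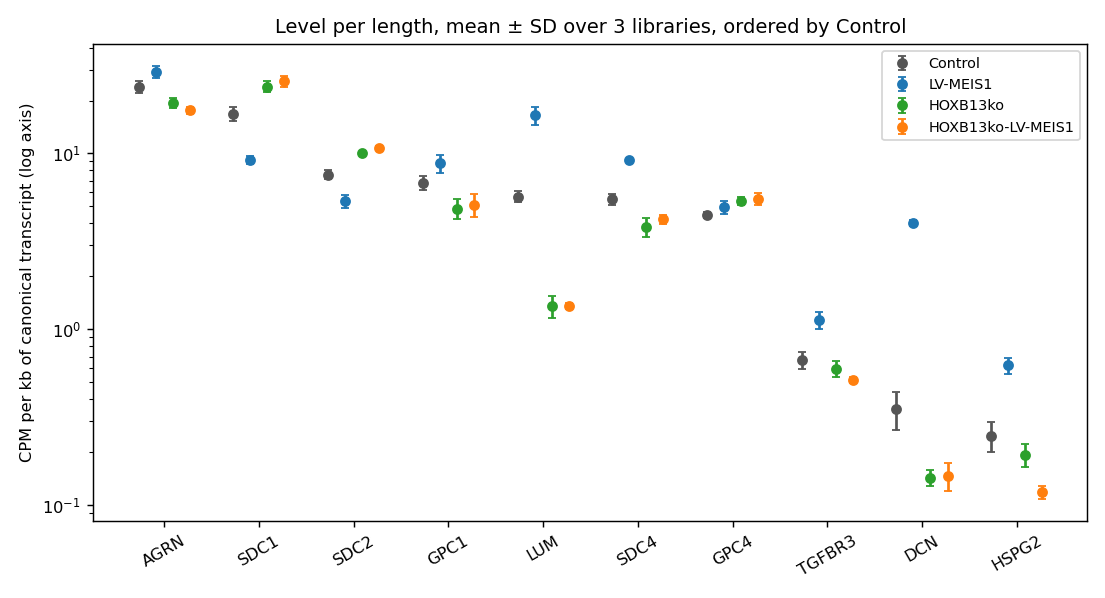
Level per length (CPM per kb of canonical transcript, log axis, mean ± SD over 3 libraries) of the 10 genes, ordered by their Control level. LUM and DCN have the widest separation between groups, and GPC4 the narrowest.

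Promoter sequences, 250 bases before the annotated start, were found in RefSeq (GRCh38.p14) for 6 of the 10 genes (HSPG2, TGFBR3, SDC1, GPC1, SDC4 and GPC4) in 7 windows. Those of 3 genes are shown because HSPG2 and SDC4 were higher and SDC1 lower in LV-MEIS1, on the minus strand of each chromosome and read 5′ to 3′. Capitals mark GGGCGG, the GC box, or its reverse complement CCGCCC, with overlapping matches counted.
HSPG2 promoter, chr1:21937311-21937560: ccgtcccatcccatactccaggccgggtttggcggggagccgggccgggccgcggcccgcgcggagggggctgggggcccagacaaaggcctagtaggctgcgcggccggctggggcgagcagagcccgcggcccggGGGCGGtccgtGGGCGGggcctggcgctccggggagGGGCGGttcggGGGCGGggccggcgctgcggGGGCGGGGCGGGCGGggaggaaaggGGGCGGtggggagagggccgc
SDC4 promoter, chr20:45348425-45348674: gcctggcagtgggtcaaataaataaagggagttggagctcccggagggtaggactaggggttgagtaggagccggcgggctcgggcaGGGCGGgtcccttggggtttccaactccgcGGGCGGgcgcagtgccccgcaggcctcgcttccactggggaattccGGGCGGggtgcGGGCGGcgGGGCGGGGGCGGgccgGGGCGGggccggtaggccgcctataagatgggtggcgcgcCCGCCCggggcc
SDC1 promoter, chr2:20225476-20225725: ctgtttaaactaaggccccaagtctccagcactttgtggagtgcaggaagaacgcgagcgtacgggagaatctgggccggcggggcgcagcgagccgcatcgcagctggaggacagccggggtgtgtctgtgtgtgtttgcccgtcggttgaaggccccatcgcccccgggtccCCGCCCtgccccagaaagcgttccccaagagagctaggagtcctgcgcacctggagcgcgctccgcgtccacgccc
HSPG2 holds 8 GC box matches, SDC4 holds 8 and SDC1 holds 1 in these windows. Of the windows not shown, those of GPC1 and TGFBR3, also higher in LV-MEIS1 by eBayes, hold 4 and 2. GPC4, which passed neither test there, holds 2, and the other SDC1 window holds 1. The TGFBR3 window (91886152 to 91886401) and that SDC1 window (20225131 to 20225380) lie inside the gene spans given above. Each therefore precedes a start within the gene. The part of GC boxes in these levels was not tested. All 7 windows hold at least 1, against 42.6% of all 35116 promoters in the table. Their GC content was 66.4% to 84%, and the median of all promoters was 58%. A MEIS-type motif, TGACAG, and a HOXB13-type motif, CAATAAA, were searched on both strands. Neither occurred in any of the 7 windows, whereas 13.0% and 3.67% of all promoters hold them. This says only that these letters are absent from these windows.

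Other proteoglycan core proteins were taken from a list of 41, of which 16 were listed in the data. By treat, 1 rose in LV-MEIS1 against Control and 2 fell, beside 1.75% and 2.24% of all genes. NRP1, a co-receptor for semaphorins and VEGF that can carry a chain, had 31.4, 27.9 and 26.0 CPM in Control and 99.2, 107 and 102 CPM in LV-MEIS1, a rise of 1.84 ± 0.07 (limma treat adjusted p = 5.6e-09). CD44, the hyaluronan receptor, fell by 0.93 on the log2 scale (treat adjusted p = 4.1e-04 in limma) and SPOCK1, a testican, fell by 0.79 (treat adjusted p = 0.0116). Of the 16, 10 passed eBayes, 5 in each direction, beside 23.2% of all genes higher and 21.3% lower, and their median log2 fold change was 0.06, against 0.53 for the 10 genes above and 0.01 for all genes. GPC3, a glypican, averaged 2.93 CPM in Control and 5.31 CPM in LV-MEIS1, while GPC6 averaged 83.6 and 65.1 CPM, neither called. In HOXB13ko against Control none was called, beside 1.41% of all genes, and 11 passed eBayes, beside 32.9%. VCAN, versican, averaged 4.04 CPM in Control and 8.41 CPM in HOXB13ko, and SPOCK2, another testican, averaged 3.38 and 1.11 CPM. In the HOXB13ko pool none was called by either test, where treat called 0.00717% and eBayes 0.0502% of all genes. An unadjusted eBayes p under 0.05 was found for 8, beside 14.8% of all genes.

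Beside the directions above, CD44 and SPOCK1 had the order of SDC1 and SDC2. CD44 averaged 43.1 CPM in Control, 22.5 in LV-MEIS1, 62.1 in HOXB13ko and 68.9 in HOXB13ko-LV-MEIS1, and SPOCK1 averaged 181, 104, 256 and 288 CPM. NRP1 averaged 28.5, 103, 20.5 and 26.9 CPM. In HOXB13ko-LV-MEIS1 against LV-MEIS1, 5 of the 16 were called, beside 6.71% of all genes. CD44 and SPOCK1 were higher and NRP1, APLP2 and CSPG4 were lower. APLP2, an amyloid precursor-like protein that can carry chondroitin sulfate, averaged 541 CPM in LV-MEIS1 and 304 CPM in HOXB13ko-LV-MEIS1.

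Of 24 binding partners and processing enzymes, 22 were listed. These include receptors bound by decorin (EGFR, MET and IGF1R), the TGF-beta ligands and receptors, FGF receptors, integrins, nidogen, and enzymes that cut or release proteoglycans. In LV-MEIS1 against Control NID1, nidogen, which links perlecan to laminin and collagen IV, rose by 1.22 ± 0.07 (limma treat adjusted p = 1.4e-05), from 17.0, 15.7 and 15.5 CPM to 36.2, 39.1 and 39.4 CPM. NOTUM, a lipase that acts on Wnt proteins and was described as releasing glypicans, fell by 2.53 on the log2 scale (treat adjusted p = 3.2e-09), from 28.7, 37.9 and 30.6 CPM to 4.87, 5.02 and 5.55 CPM. IGF1R fell by 1.15 (treat adjusted p = 7.7e-05). Of 44 other genes averaging 5 CPM or more within 10 megabases of IGF1R on chromosome 15, 41 were lower in LV-MEIS1. Their median log2 fold change was -0.56. Of all 13951 genes, 6838 were lower by sign in that comparison. The same neighbours had a median of 0.01 in HOXB13ko-LV-MEIS1 against HOXB13ko. By eBayes 14 of the 22 were higher and 5 lower, beside 23.2% and 21.3% of all genes, with a median of 0.34 against 0.01. By treat 1 was higher and 2 were lower, beside 1.75% and 2.24%.

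The receptors bound by decorin did not share a direction in LV-MEIS1 against Control. Beside the fall of IGF1R, EGFR averaged 54.7 CPM in Control and 43.3 CPM in LV-MEIS1, and MET, named here after its values were seen, had a log2 fold change of 0.44 (limma eBayes adjusted p = 0.0024). EGFR levels in HOXB13ko and HOXB13ko-LV-MEIS1 were 81.7 and 71.7 CPM. The ligand TGFB1 averaged 16.4 CPM in Control, 22.7 in LV-MEIS1, 8.22 in HOXB13ko and 8.88 in HOXB13ko-LV-MEIS1, the order of DCN and LUM. SDCBP, syntenin, which binds syndecan tails, averaged 52.8 and 73.2 CPM in Control and LV-MEIS1, and HPSE, heparanase, 12.1 and 15.8 CPM. In HOXB13ko against Control none of the 22 was called, beside 1.41% of all genes, and 13 passed eBayes, beside 32.9%. None was called by either test in the HOXB13ko pool, where treat called 0.00717% and eBayes 0.0502% of all genes. Under an unadjusted eBayes p of 0.05 were 6, beside 14.8% of all genes. Between HOXB13ko-LV-MEIS1 and LV-MEIS1, NOTUM, IGF1R and FGFR3 rose and NID1, TGFB1 and FGFR4 fell, 6 of 22 beside 6.71% of all genes.

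**Figure D5:**
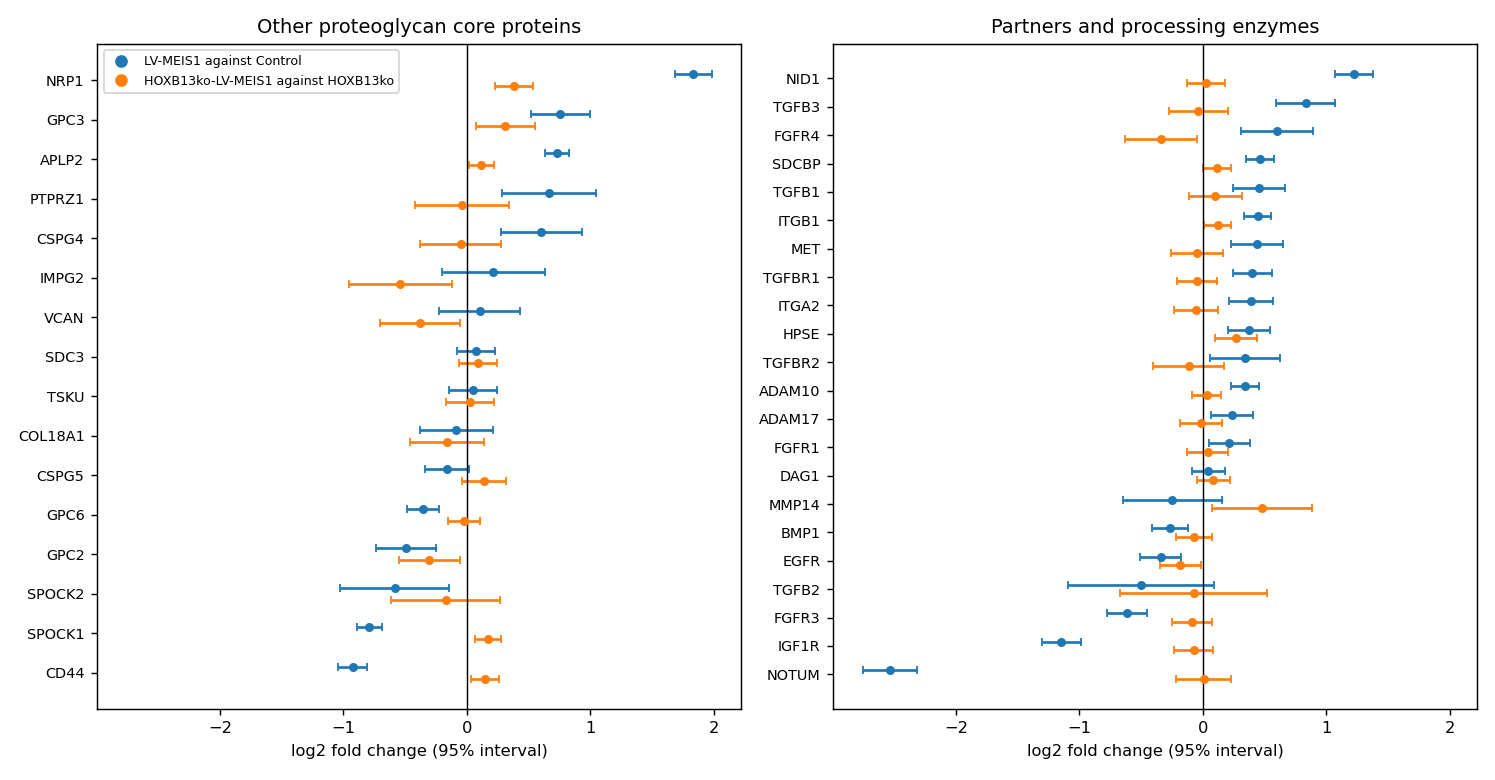
Log2 fold changes with 95% intervals for the 16 other proteoglycan core proteins and the 22 partners and processing enzymes listed. Blue marks LV-MEIS1 against Control and orange marks HOXB13ko-LV-MEIS1 against HOXB13ko. The blue points spread from NOTUM at -2.53 to NRP1 at 1.84, and no orange point passed either test.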

How the data were processed

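RNA was sequenced as single-end 50-base reads from a stranded kit. The authors trimmed reads with Trimmomatic 0.38, assigned them to Ensembl GRCh38 transcripts with kallisto 0.43.1 without using strand, summed them to genes, removed low-count genes, normalised in edgeR 3.22.2 and deposited CPM per library. Of 13993 rows, 42 exact repeats were left out. Depth is not stated, and only 45.8% to 60% of values under 1 CPM lay within 0.1 reads of a whole multiple of the estimated step, so no count model was fitted.

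Groups came from the labels. log2(CPM + 0.5) was fitted in limma 3.58.1 (R 4.3.3) over 12 libraries with 1 mean per group and 8 residual degrees of freedom. treat against 1.5-fold and eBayes used a trended prior, with Benjamini-Hochberg adjustment over 13951 genes, and were tested on simulated data. Tried as alternatives were other pseudocounts (0.1 and 1), genes averaging at least 1 CPM, 3 further library scalings, a replicate block, only the libraries compared, and leaving out each library. Positions came from GENCODE 44 and promoters from RefSeq. Named genes were drawn from the 10 members and list genes called in any contrast. Up to 3 more per list and contrast with the lowest eBayes p were eligible. Some of those, ITGB1 and TGFB3 among them, are not reported here. The 5 nearest profiles to DCN and to LUM were also named. The members and lists were chosen with earlier results of these data known. Some of the prostate epithelial markers examined are not reported here.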

Additional observations from a re-analysis of the deposited data

Results flagged for a closer look

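The change in LV-MEIS1 against Control differed from that in HOXB13ko-LV-MEIS1 against HOXB13ko for 9 genes of the lists examined. The test was of the difference itself (limma treat against 1.5-fold on log2(CPM + 0.5)). Those genes were 3 of the 10 proteoglycan genes, 3 of 16 other core proteins and 3 of 22 partners and processing enzymes. Of all genes, 2.93% were called. The difference is the change in LV-MEIS1 against Control minus that in the pool. Among the 10 proteoglycan genes it was 3.263 for DCN, 1.797 for HSPG2 and 1.488 for LUM. DCN and LUM changed by 0.02 and 0.01 in the pool, and HSPG2 was lower there. Among other core proteins it was 1.454 for NRP1, -1.073 for CD44 and -0.962 for SPOCK1. Among partners and processing enzymes it was 1.195 for NID1, -2.543 for NOTUM and -1.072 for IGF1R, whose neighbours on chromosome 15 were lower together in LV-MEIS1. These comparisons use the same libraries as those of the report. Each genotype was a single line or pool, so an effect of MEIS1 cannot be told apart from a difference between lines.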

How the results depend on the processing

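Of 990 values of the 10 genes under the alternatives, 958 kept their direction and side of the treat threshold, 18 lost a call, 4 gained one and 10 changed sign. All 10 sign changes were in HOXB13ko-LV-MEIS1 against HOXB13ko, where the values lie near 0: LUM was -0.009367 with an equal sum per library, and leaving out 1 library gave -0.07766 to 0.08578 for DCN, -0.06866 to 0.1099 for LUM, -0.04298 to 0.1697 for GPC1 and -0.01716 to 0.0901 for GPC4. The calls lost or gained were those of SDC1, HSPG2 and TGFBR3 given in the report. By eBayes, HSPG2 in HOXB13ko against Control passed without Control replicate 1 (limma adjusted p = 0.0307), and GPC4 in HOXB13ko-LV-MEIS1 against LV-MEIS1 passed with quantile normalisation and without LV-MEIS1 replicate 1.

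Testing against no change in place of 1.5-fold raised the counts. In LV-MEIS1 against Control it called 9 of the 10 genes, 10 other core proteins, 19 partners and 6207 of all genes. In HOXB13ko against Control the counts were 8, 11, 13 and 4590, and in HOXB13ko-LV-MEIS1 against HOXB13ko 7 of all genes passed. For HOXB13ko-LV-MEIS1 against LV-MEIS1 they were 10 other core proteins, 16 partners and 6993 of all genes, and for the difference of the MEIS1 effects 8, 9, 13 and 4771.

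Leaving out 1 library gave, in LV-MEIS1 against Control, 2 to 4 calls among the 10 genes, with 2 without Control replicate 1 or LV-MEIS1 replicate 3. It gave 0 to 1 other core proteins in HOXB13ko against Control (1 without HOXB13ko replicate 2), 0 to 1 partners there (1 without HOXB13ko-LV-MEIS1 replicate 1) and 1 to 2 of all genes in HOXB13ko-LV-MEIS1 against HOXB13ko (2 without Control replicate 1 or 2). In that comparison 2 of all genes were also called with a pseudocount of 0.1, with a replicate block and with only the libraries compared. The cause of these changes was not tested.

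Replicate numbers did not pair the samples. Deviations of same-numbered libraries correlated at -0.209 to 0.146, and 0 of 12 libraries correlated best with their own number. With the replicate block, calls among the 10 genes numbered 3 in LV-MEIS1 against Control, 1 in HOXB13ko against Control and 0 in the pool. Other scalings moved the median of all genes by at most 0.0386. Depth limits DCN most, at about 20 estimated reads in its lowest library, and the CPM scale with a pseudocount of 0.5 understates its fold change.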
